A study of Rattus norvegicus with 9 samples.

Results

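The S100 proteins and annexins described here are 10 genes, namely S100a4, S100a6, S100a8, S100a9, S100a10, S100a11, Anxa1, Anxa2, Anxa3, and Anxa5. Their probes were taken by the gene name given in the array files, which found 11 probes of 30367 on the array, and these 10 genes are among 19293 gene symbols. Each gene was measured by 1 probe except Anxa3, which had 2, and was represented by its brighter probe. All 11 probes were well above background on all 9 arrays, none was saturated, and all passed the filter on dim probes.

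The arrays were one-color Agilent SurePrint G3 Rat arrays hybridized with total RNA from the infarcted hemisphere of male Sprague-Dawley rats at day 14, with 3 rats per group. Sham rats had the artery exposed without a filament and received the solvent. I/R rats had the middle cerebral artery blocked for 2 h by a nylon filament and then reperfused. DHI rats had the same injury and received Danhong injection, a Chinese herbal preparation, through the tail vein daily until day 14. The source does not state for the I/R rats whether they received the solvent. A sample is bulk tissue, in which more cells of a type and more RNA per cell cannot be told apart, and protein was not measured. Slide 1 carried Sham and I/R and slide 2 carried DHI, and an effect of DHI cannot be told apart from one of the slide. The brain markers Snap25 (neurons), Gfap (astrocytes), and Mbp (oligodendrocytes) were well above background on all 9 arrays.

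S100 proteins are small calcium-binding proteins that act as dimers inside cells and, for some members, as danger signals once released. Annexins are proteins that bind the phospholipids of membranes when calcium is present. The families meet in fixed partnerships, in which an S100 dimer bridges annexin molecules at a membrane, as S100a10 does with Anxa2 and S100a11 with Anxa1. In the injured brain, members of both families are known from reactive astrocytes, microglia, and infiltrating leukocytes.

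The probes of 4 S100 genes are shown because these are paralogs with similar coding sequence, and a probe that resembled its neighbor could report the wrong gene. Each probe has 60 bases, and its longest run of bases shared with the probe of another S100 member is in capitals.
S100a6: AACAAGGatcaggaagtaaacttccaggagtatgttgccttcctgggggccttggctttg
S100a8: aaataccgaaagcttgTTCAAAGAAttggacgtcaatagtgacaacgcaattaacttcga
S100a9: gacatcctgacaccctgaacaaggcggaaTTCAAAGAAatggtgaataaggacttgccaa
S100a11: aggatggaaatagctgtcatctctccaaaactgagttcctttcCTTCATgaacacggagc
The longest run shared between probes of either family was 9 bases, between S100a8 and S100a9, and it was 6 or 7 bases for the other members. Probes were compared only with each other, and they can lie at different places in their transcripts. No probe was compared with the transcript of a paralog, so signal from a neighboring paralog was not tested.

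On the rn4 build that the files use, the 6 S100 probes all lie on chromosome 2. S100a4 is at 182887318 to 182887377, S100a6 8.8 kb further at 182896129 to 182896188, and S100a8 at 182962328 to 182962387. S100a9 follows at 182987647 to 182987706 on the minus strand, 25.3 kb from S100a8. S100a11 (186620424 to 186620483) and S100a10 (186654233 to 186654292) are 33.8 kb apart and 3632.8 kb beyond S100a9. The annexin probes are dispersed, with Anxa1 on chromosome 1 from 223478470 to 223478529, Anxa2 on chromosome 8 from 73933982 to 73934041, Anxa3 on chromosome 14 from 14245218 to 14245277, and Anxa5 on chromosome 2 from 122950184 to 122950243. No annotation of exons was used here.

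All 10 genes were higher in I/R than in Sham. The rise was largest for S100a4 (26.3-fold), S100a11 (21.2-fold), and Anxa1 (18.2-fold), and smallest for Anxa5 (2.12-fold). In DHI rats 7 of the 10 were lower than in I/R by the unadjusted p, with 0 passing adjustment over all probes. The 3 DHI rats differed from each other, as DHI 1 lay nearer to the I/R mean for all 10 genes and DHI 3 nearer to the Sham mean for all 10.

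Values below are log2 signals in which the 75th percentile of each array is set to 0. A gene was called when limma gave an unadjusted p under 0.05 and the fold change (FC) was over 1.5, the thresholds of the study. In I/R versus Sham, 10 of 10 genes were called higher, where 20.8% of all 23745 tested probes were called higher and 22.3% lower. After Benjamini-Hochberg adjustment over all probes, 9 of 10 genes had a p under 0.05, against 16.4% of all probes in that direction, and Anxa5 did not (adjusted p = 0.0543). The I/R arrays lay above the Sham arrays without overlap for 10 of 10 genes, against 26.7% of all probes. The median log2 change of the 10 genes was 3.25, while that of all probes was -0.10. The 9 adjusted p-values lay between 0.0396 and 0.0429, close to the threshold, and the count of 9 fell to 0 without any 1 of the 3 Sham arrays, and likewise without DHI 3, I/R 2, or I/R 1. In each of these 6 models 0 or 1 of all 23745 probes passed, against 7472 with the 9 arrays. The unadjusted count stayed between 9 and 10 in all alternatives. It was 10 in a model of only Sham and I/R, which were on the same slide. In that model 9 of 10 genes passed the adjusted p, against 19.8% of all probes in that direction.

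**Figure D1:**
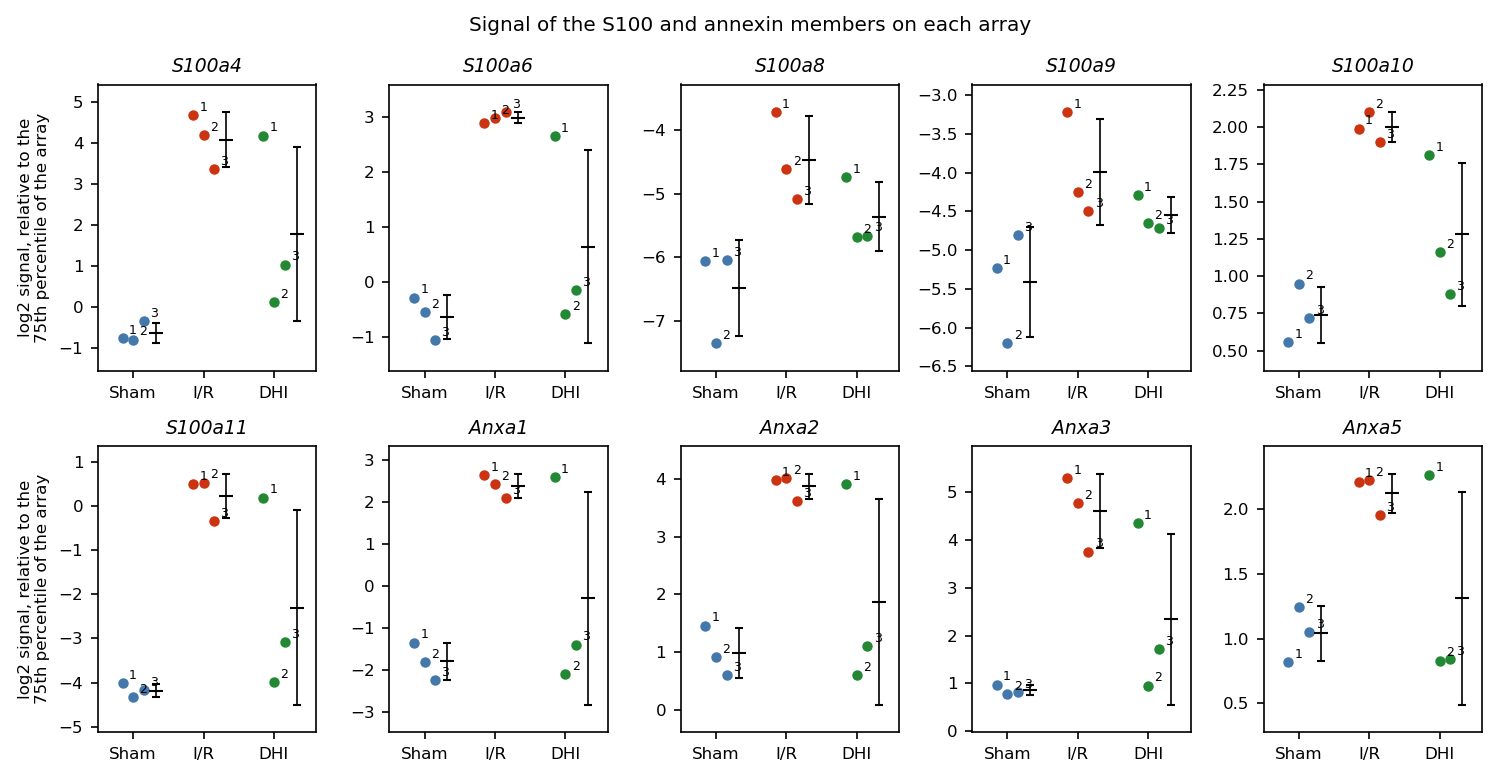
Log2 signal with the 75th percentile of each array at 0 (vertical axis) for the 10 genes on the 9 arrays. Points are arrays, numbered by replicate, and bars show the mean and SD of 3 arrays. DHI 1 lies near the I/R arrays in every panel, while DHI 2 and DHI 3 lie lower.

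S100a10 and Anxa2 form the best known S100 and annexin complex, which anchors proteins at the inner face of the plasma membrane and binds plasminogen at the cell surface. S100a10 was 0.56, 0.95, and 0.72 on Sham 1 to Sham 3, 1.99, 2.1, and 1.9 on I/R 1 to I/R 3, and 1.81, 1.16, and 0.88 on DHI 1 to DHI 3. The I/R arrays were the highest, with an SD of 0.10 (n = 3), and DHI 3 fell inside the Sham range. The rise in I/R versus Sham was 1.25 (SE 0.24, limma adjusted p = 0.0396), or 2.38-fold. S100a10 was lower in DHI than in I/R by 1.64-fold (log2 change -0.71, SE 0.24, limma adjusted p = 0.196), and the groups did not overlap.
Anxa2 was 1.46, 0.91, and 0.61 on Sham 1 to Sham 3, 3.98, 4.02, and 3.62 on I/R 1 to I/R 3, and 3.91, 0.61, and 1.1 on DHI 1 to DHI 3. DHI 1 lay among the I/R arrays, DHI 3 within the Sham range, and DHI 2 at its lower end. The log2 change was 2.88 (SE 0.76, limma adjusted p = 0.0400) in I/R versus Sham and -2.0 (SE 0.76) in DHI versus I/R, where the limma adjusted p was 0.196. In DHI versus Sham neither partner was called, with log2 changes of 0.54 for S100a10 and 0.88 for Anxa2.

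S100a11 and Anxa1 are the other pair. Anxa1 is a glucocorticoid-induced protein that limits leukocyte entry and signals through formyl peptide receptors, and S100a11 binds its N-terminal end. S100a11 was -4.02, -4.33, and -4.17 on the Sham arrays, 0.50, 0.53, and -0.34 on the I/R arrays, and 0.19, -3.99, and -3.09 on the DHI arrays. Sham and I/R were separated by a gap far wider than the spread within either group, with an SD of 0.15 in Sham and 0.50 in I/R (n = 3 each). The log2 change in I/R versus Sham was 4.41 (SE 0.93, limma adjusted p = 0.0396).
Anxa1 was -1.35, -1.81, and -2.25 on the Sham arrays, 2.64, 2.42, and 2.08 on the I/R arrays, and 2.59, -2.11, and -1.40 on the DHI arrays. The 3 DHI rats split, since DHI 1 was within the I/R range and both DHI 2 and DHI 3 within the Sham range. The log2 change in I/R versus Sham was 4.18 (SE 1.06, limma adjusted p = 0.0396). Anxa1 changed by -2.68 (SE 1.06) in DHI versus I/R, the largest log2 change of the 10 genes in this comparison, and S100a11 by -2.53 (SE 0.93), both at a limma adjusted p of 0.196. Over the alternatives the change of Anxa1 lay between -4.13 (without DHI 1) and -1.78 (without DHI 2), and its call was kept in 13 of 20. That of S100a11 lay between -3.77 and -1.68 on leaving out the same arrays, with its call kept in 14 of 20.

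S100a8 and S100a9 form calprotectin, a cytosolic protein of neutrophils and monocytes that signals through TLR4 and RAGE when released. Both probes lay far below the 75th percentile in all 3 groups. S100a8 was -6.06, -7.35, and -6.04 on the Sham arrays, -3.72, -4.61, and -5.08 on the I/R arrays, and -4.74, -5.68, and -5.66 on the DHI arrays. S100a9 was -5.23, -6.20, and -4.81 on the Sham arrays, -3.22, -4.25, and -4.50 on the I/R arrays, and -4.29, -4.65, and -4.71 on the DHI arrays. For both genes Sham 2 was the lowest array and I/R 1 the highest, and all 3 DHI arrays lay above all 3 Sham arrays. The rise in I/R versus Sham was 2.01 (SE 0.49, limma adjusted p = 0.0396) for S100a8 and 1.42 (SE 0.43, limma adjusted p = 0.0429) for S100a9. With normexp background correction these rises were 0.93 and 0.79. Neither gene was called in DHI versus I/R, where the 95% interval of the log2 change ran from -2.01 to 0.23 for S100a8 and from -1.55 to 0.43 for S100a9. In DHI versus Sham, S100a8 was called at 1.13 (SE 0.49, limma adjusted p = 0.709). This call was kept under 10 of 20 alternatives and was lost without Sham 2, I/R 2, or any 1 DHI array, at 0.69 without Sham 2.

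S100a4 is a motility protein that binds non-muscle myosin, and S100a6 (calcyclin) is a growth-associated member. S100a4 was -0.75, -0.79, and -0.34 on the Sham arrays, 4.70, 4.20, and 3.37 on the I/R arrays, and 4.19, 0.12, and 1.04 on the DHI arrays. It had the largest rise of the 10 genes, 4.72 (SE 0.93, limma adjusted p = 0.0396), and all DHI arrays were above all Sham arrays. It was called in DHI versus I/R (-2.31, SE 0.93, limma adjusted p = 0.196) and also in DHI versus Sham (2.41, SE 0.93, limma adjusted p = 0.709). The former call was kept under 11 of 20 alternatives and the latter under 14 of 20, and the latter was lost without any 1 Sham array.
S100a6 was -0.29, -0.56, and -1.07 on the Sham arrays, 2.89, 2.98, and 3.09 on the I/R arrays, and 2.65, -0.59, and -0.15 on the DHI arrays. All 3 DHI arrays were below the I/R arrays, DHI 1 by the smallest margin. The log2 change was 3.62 (SE 0.75, limma adjusted p = 0.0396) in I/R versus Sham and -2.35 (SE 0.75) in DHI versus I/R, where the limma adjusted p was 0.196.

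Anxa3 is a less studied annexin found in phagocytes. Its brighter probe was 0.97, 0.78, and 0.82 on the Sham arrays, 5.29, 4.78, and 3.76 on the I/R arrays, and 4.36, 0.95, and 1.71 on the DHI arrays. DHI 1 lay inside the I/R range and DHI 2 inside the Sham range. The log2 change was 3.75 (SE 0.81, limma adjusted p = 0.0396) in I/R versus Sham and -2.27 (SE 0.81) in DHI versus I/R, where the limma adjusted p was 0.196. The other Anxa3 probe lies 8882 bases away on the same strand and is annotated by an Ensembl transcript. Whether this probe also lies in a RefSeq transcript of Anxa3 was not tested. It stayed between -6.73 and -5.72 on all 9 arrays and was not called in any comparison, with a log2 change of -0.20 (SE 0.25) in I/R versus Sham. When both probes were averaged, the Anxa3 rise in I/R versus Sham was 1.78 and its change in DHI versus I/R was -0.96.
Anxa5 binds phosphatidylserine on the surface of dying cells and is used to stain them. It was 0.82, 1.24, and 1.05 on the Sham arrays, 2.21, 2.22, and 1.95 on the I/R arrays, and 2.26, 0.83, and 0.84 on the DHI arrays. DHI 1 was the highest of all 9 arrays, while DHI 2 and DHI 3 were at the lower end of Sham. The rise in I/R versus Sham was 1.08 (SE 0.37), and its call was lost without Sham 1 (0.97), I/R 1 (1.04), or I/R 2 (1.04). In DHI versus I/R it was not called (-0.81, 95% interval -1.67 to 0.04).

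In DHI versus I/R, 7 of 10 genes were called lower, against 10.5% of all probes called lower and 11.5% called higher. The genes not called were S100a8, S100a9, and Anxa5. By limma 0 of 10 passed the adjusted p, while 7 had an unadjusted p under 0.05, and 0.00421% of all probes passed in either direction. The methods' t-test called 0 of 10 at the study's thresholds, against 0.737% of all probes called lower and 1.24% called higher. The DHI arrays lay below the I/R arrays without overlap for 2 of 10 genes, S100a6 and S100a10, against 4.03% of all probes. The median log2 change was -2.14, against 0.10 for all probes. The count of 7 was 9 without DHI 1, 1 without DHI 2, 0 without DHI 3, 2 without I/R 1, and 1 without I/R 2. The share of all probes called lower also moved, from 10.5% to 19.1%, 1.8%, 2.13%, 2.08%, and 2.87% in the same order. Without I/R 3, Anxa1 and Anxa2 lost their calls, although the share of all probes called lower was 15.5%. Without Sham 1, Sham 2, or Sham 3, S100a4 lost its call, with shares of 8.06%, 7.79%, and 7.82%. The count of members was 2 when the Sham arrays were left out of the model, where 4.65% of all probes were called lower. Without DHI 1, 8 of 10 genes passed the adjusted p, and so did 17.3% of all probes in the lower direction and 22.9% in the higher.
In DHI versus Sham, 2 of 10 genes were called higher (S100a4 and S100a8), against 2.51% of all probes. By limma 0 of 10 passed the adjusted p, with 2 at an unadjusted p under 0.05. The DHI arrays lay above the Sham arrays for 4 genes, S100a4, S100a8, S100a9, and S100a11, against 10.3% of all probes. The median log2 change was 1.20, against 0.02 for all probes. The count of 2 was 5 without DHI 2, 0 without Sham 2, and 1 without Sham 1, I/R 2, or DHI 1. The probes called higher among all probes were 7.74% without DHI 2 and 0.964% without Sham 2. The I/R arrays enter both of the first comparisons and the DHI arrays both of the last, so that the changes of a gene in the 3 comparisons are not independent.

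**Figure D2:**
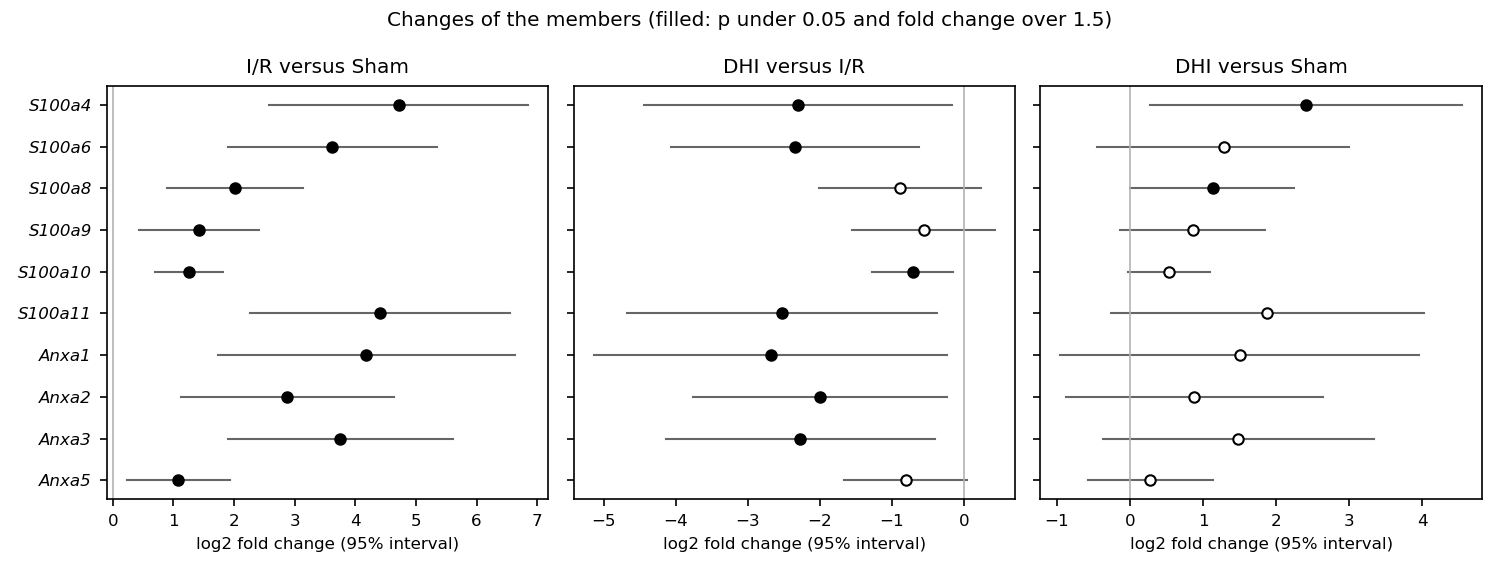
Log2 fold change (horizontal axis) of the 10 genes in the 3 comparisons, from limma over 9 arrays, with 95% intervals. The intervals rest on a single spread per gene, estimated over all 9 arrays. Filled points passed an unadjusted p under 0.05 with FC over 1.5, which were 10 genes in I/R versus Sham, 7 in DHI versus I/R, and 2 in DHI versus Sham.

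The 3 DHI rats were placed for each gene on the line from the Sham mean (0) to the I/R mean (1). This is a description with no test. DHI 1 lay between 0.79 and 1.12 with a median of 0.96, nearer to I/R for 10 of 10 genes and at or above the lowest I/R array for 8. DHI 2 lay between -0.19 and 0.53 with a median of 0.04 and was nearer to Sham for 9 genes, S100a9 being the exception. It was within or below the Sham range for 5 genes. DHI 3 lay between -0.18 and 0.49 with a median of 0.18, was nearer to Sham for 10 genes, and was within or below the Sham range for 4. For S100a8 the positions of DHI 2 and DHI 3 were 0.40 and 0.41, and for S100a9 0.53 and 0.49, whereas they were -0.19 and -0.18 for Anxa5.

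**Figure D3:**
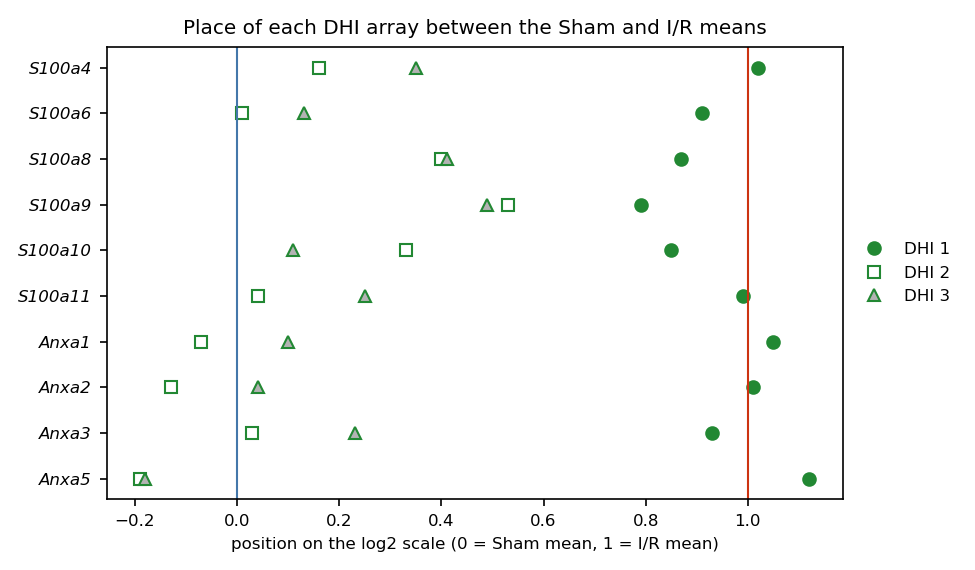
Position of DHI 1, DHI 2, and DHI 3 for each gene on the log2 scale (horizontal axis) between the Sham mean at 0 and the I/R mean at 1. DHI 1 lies from 0.79 to 1.12, and the other DHI arrays from -0.19 to 0.53.

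The profiles of the 10 genes were then set against each other. The likeness of a pair was measured as the root mean square (RMS) difference of their log2 values over the 9 arrays after centering each gene, for which a smaller value is closer. The 9 arrays include the group differences, so these values describe the groups as well as the rats. The genes were not scaled to the same spread, so the RMS difference also depends on how alike their rises were in size. Nearest to each other were S100a10 and Anxa5 (0.22), the members with the smallest rises. S100a4 was nearest to S100a11 (0.29), S100a8 to S100a9 (0.31), and S100a6 to Anxa2 (0.34). S100a11 was also the nearest member of Anxa1 (0.33), but Anxa2 was not the nearest member of S100a10. The rises in I/R versus Sham were 4.41 for S100a11 and 4.18 for Anxa1, against 1.25 for S100a10 and 2.88 for Anxa2. Whether partners moved together apart from the size of the rise was not tested. The farthest pair with S100a9 was Anxa1 (1.68).
Over 23724 probes, the symbols closest to Anxa1 were Cp (ceruloplasmin, RMS 0.13), Timp1 (a metalloproteinase inhibitor, 0.20), and Serping1 (the C1 inhibitor, 0.20). Those closest to Anxa2 were Rhod (0.13), Olfml3 (0.15), and Eya2 (0.16). Those closest to S100a4 were Tnfrsf13c (0.22), Cenpa (0.23), and Rac2 (0.25), with Rac2 being a small GTPase of blood cells. For S100a8 they were Fxyd3 (0.20), LOC100362274 (0.21), and Padi2 (0.28), and for S100a10 Dyrk2 (0.13), Slc38a5 (0.15), and Fgfrl1 (0.16).

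Of 12 other S100 genes listed, 9 were on the array and 7 were bright enough to be tested. In I/R versus Sham, 5 of the 7 were called higher and 0 lower, against 20.8% and 22.3% of all probes. The median log2 change of the 7 was 1.03. The largest change was in S100a3 (3.14, SE 0.69), followed by S100a13 (1.43, SE 0.33) and S100a5 (1.04, SE 0.30). S100a3 was -2.88, -3.25, and -3.23 on the Sham arrays, 0.28, -0.11, and -0.12 on the I/R arrays, and 0.03, -3.19, and -2.19 on the DHI arrays. S100b, the member known as an astrocyte marker, was not called (0.20, SE 0.20), with values of 4.59 to 4.85 in Sham and 4.68 to 5.27 in I/R. S100g had a negative log2 change (-0.96, SE 0.60), was not called, and was measured well above background on 1 of the 3 I/R rats' arrays. In DHI versus I/R, 4 of 7 were called lower and 0 higher, against 10.5% and 11.5% of all probes.
Among the other annexins, 6 of 8 were tested, with a median log2 change of 0.69 in I/R versus Sham. Against 20.8% of all probes called higher and 22.3% lower, 3 of the 6 were called higher and 0 lower. These were Anxa8 (1.25, SE 0.48), Anxa7 (1.02, SE 0.16), and Anxa4 (1.00, SE 0.36), and of them Anxa7 passed the adjusted p (limma, 0.0396). Anxa7 was also the only one called in DHI versus I/R (-0.79, SE 0.16). Of these other S100 and annexin genes, 0 were called in DHI versus Sham by limma, against 2.51% of all probes called higher and 1.06% lower.

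Of 14 tested receptors and partners of the members, 7 were called higher in I/R versus Sham and 2 lower. Of all probes, 20.8% were called higher and 22.3% lower. The median log2 change of the 14 genes was 0.76. Tlr4, a receptor for calprotectin, rose by 2.98 (SE 0.75), and Pla2g4a, the cytosolic phospholipase that Anxa1 is known to inhibit, rose by 2.70 (SE 0.62). Ager, which encodes RAGE, was not called (0.17, SE 0.20), and neither was the formyl peptide receptor gene Fpr1 (0.62, SE 0.30). Kcnk3, a potassium channel whose transport S100a10 is known to affect, fell by 1.76 (SE 0.53), as did Plg, the gene for plasminogen (-1.11, SE 0.48). Of these 14 genes, 5 were called lower in DHI versus I/R, Tlr4 (-2.26, SE 0.75) and Pla2g4a (-1.84, SE 0.62) among them, and Kcnk3 was called higher (1.33, SE 0.53). Of all probes, 10.5% were called lower in that comparison and 11.5% higher. In DHI versus Sham 0 of 14 were called by limma, against 2.51% of all probes called higher and 1.06% lower.

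**Figure D4:**
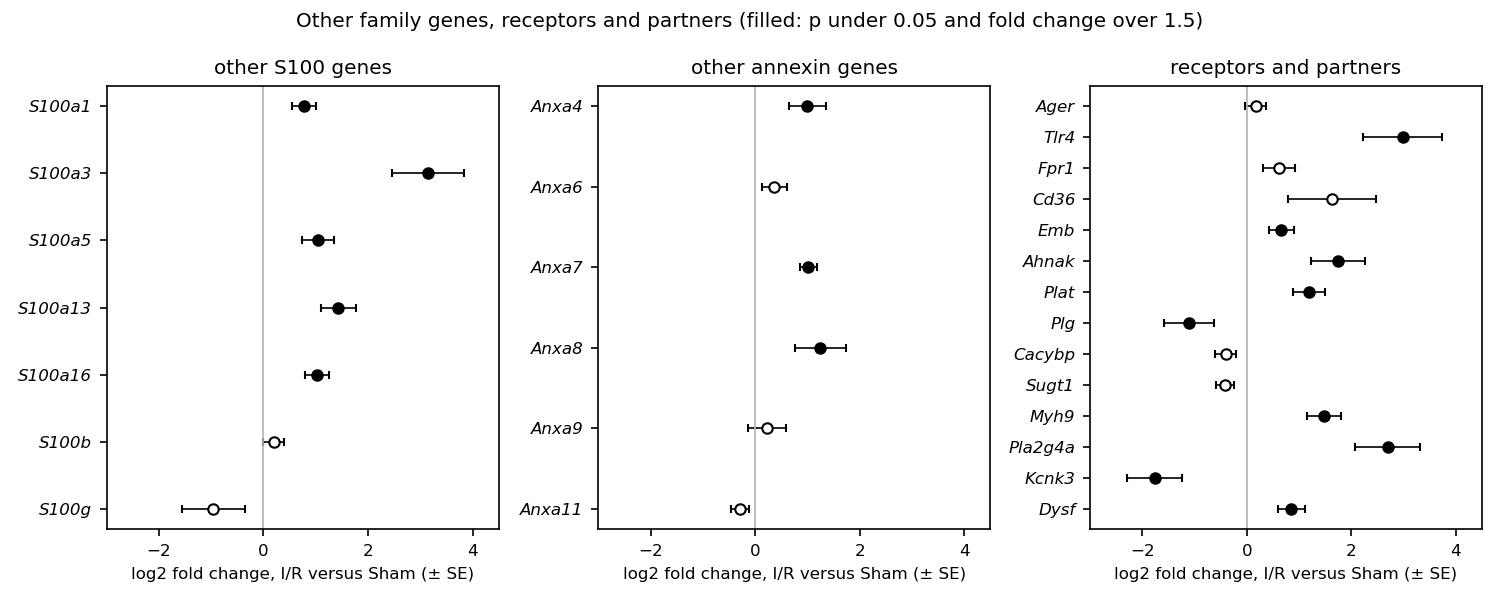
Log2 fold change in I/R versus Sham with its SE (horizontal axis) for the other S100 genes, the other annexin genes, and the receptors and partners that were tested. Filled points passed an unadjusted p under 0.05 with FC over 1.5, which were 5 of 7, 3 of 6, and 9 of 14 genes. S100b and Ager lie near 0.

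S100a10 is often used as a marker of the A2 class of reactive astrocytes. The other genes of that list were read beside it. In I/R versus Sham, 7 of 9 tested were called higher and 1 lower (median 2.18), against 20.8% and 22.3% of all probes. Slc10a6 rose by 4.06 (SE 0.84), Cd14 by 3.73 (SE 1.05), and Ptx3 by 3.16 (SE 0.81), while Ptgs2, the gene for cyclooxygenase-2, was lower (-1.99, SE 0.58). Cd14 is also a gene of monocytes and microglia. In DHI versus I/R, 4 were called lower and 1, Ptgs2, higher, against 10.5% and 11.5% of all probes.

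Markers of several cell types moved with the members. Beside the counts that follow for I/R versus Sham, 20.8% of all probes were called higher and 22.3% lower. The level of a list on an array is given as the sum of its linear signals, each relative to the 75th percentile of that array. The 10 members summed to 8.59 to 9.87 in Sham, 57.4 to 105 in I/R, and 75.5, 9.57, and 12.6 on DHI 1 to DHI 3. Microglia and macrophage markers summed to 20.6 to 24.9 in Sham, 148 to 373 in I/R, and 209, 27.7, and 33.8 on DHI 1 to DHI 3. In this list 11 of 12 were called higher in I/R versus Sham, with Cd68 (6.69, SE 1.45), Tyrobp (4.25, SE 0.89), and C1qa (3.97, SE 0.81) rising most, and Cx3cr1 was not called (-1.0, SE 0.52). All 8 fibroblast and meninges markers were called higher, led by Col3a1 (4.87, SE 1.22), Lum (4.85, SE 1.33), and Col1a1 (4.78, SE 1.18), with sums of 7.13 to 11.4 in Sham, 76.9 to 124 in I/R, and 107.4, 7.37, and 8.40 on the DHI arrays.
Of 8 reactive astrocyte markers, 6 were called higher, with Cd44 (3.94, SE 0.83), Gfap (3.63, SE 0.67), and Vim (3.62, SE 0.90) the largest, while Aldoc fell by 0.70 (SE 0.25). Their median log2 change was 2.38, but their summed signal, in which Aldoc is the brightest probe, was 145.9 to 149.3 in Sham, 137.8 to 169.0 in I/R, and 133.4, 144.8, and 129.8 on DHI 1 to DHI 3. All 10 neuron markers were called lower in I/R, Nefl (-3.04, SE 0.83), Snap25 (-3.0, SE 0.74), and Rbfox3 (-2.85, SE 0.73) most. The neuron sums were 69.1 to 75.9 in Sham, 6.55 to 33.2 in I/R, and 21.4, 72.9, and 57.0 on DHI 1 to DHI 3. For the microglia, fibroblast, and neuron lists DHI 1 lay on the I/R side and DHI 2 and DHI 3 near Sham, as for the members, and the part of cell makeup in the members' changes was not tested.

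Neutrophil markers were read beside S100a8 and S100a9. Of 12, 7 were bright enough to be tested, and 4 were called higher in I/R versus Sham, among them Camp (0.67, SE 0.23). Of all probes, 20.8% were called higher and 22.3% lower. Elane, Ltf, and Ctsg, genes of neutrophil granules, were well above background on 0 of the 9 arrays. Mpo, bright enough on 2 of the 3 I/R rats' arrays, was not called (-0.31, SE 0.23). Csf3r rose by 4.40 (SE 0.78) and Lcn2 by 3.34 (SE 0.82), both genes that other cells of injured brain can also express. Mmp8 was measured above background on 0 of 3 Sham arrays. It is 1 of the 4 called, and it passed the filter on dim probes only through the I/R arrays, so that it had to differ. Its level in I/R was at least 7.77-fold higher, a bound against the lowest signal well above background on each Sham array. In DHI versus I/R, 1 of the 7 was called higher (Mpo, 0.94, SE 0.23) and 1 lower (Csf3r, -2.48, SE 0.78), against 11.5% and 10.5% of all probes. The log2 changes of Cxcr1 (-2.91), Mmp8 (-2.41), Lcn2 (-1.42), Camp (-0.21), and Prtn3 (0.53) were not called. Cxcr1, like Mmp8, passed the filter on dim probes only through the I/R arrays. Each was well above background on 1 of the 3 DHI arrays, so these falls rest partly on signals near background. The list summed to 0.119 to 0.152 in Sham, 0.445 to 1.53 in I/R, and 0.785, 0.165, and 0.200 on DHI 1 to DHI 3. On I/R 1 to I/R 3 its brightest tested genes were Csf3r (-0.49, -1.15, and -2.19) and Lcn2 (-0.60, -2.24, and -3.35). The sum in I/R therefore rests largely on these genes, which are not particular to neutrophils.
The remaining lists gave other values. Of 8 oligodendrocyte markers 1 was called in I/R versus Sham (Cldn11, 0.95, SE 0.39), and of 8 endothelial markers 3, namely Pecam1 (1.1), Tek (1.1), and Vwf (1.04). All of these were called higher, as were 20.8% of all probes, while 22.3% of all probes were called lower. Of 5 red blood cell markers, 4 were called lower, Hbb-b1 (-2.26), Hbb (-2.17), and Hba-a2 (-2.04) most, and Slc4a1 rose by 1.95. Choroid plexus markers summed to 0.610 to 1.22 in Sham, 1.20, 2.13, and 93.7 on I/R 1 to I/R 3, and 138, 7.59, and 74.6 on DHI 1 to DHI 3. Ttr, a transport protein of that tissue, was 6.53 on I/R 3, 7.05 on DHI 1, and 6.20 on DHI 3, and was not called in I/R versus Sham (2.89, SE 1.85). Of the 5 choroid plexus markers tested, 1 was called higher in I/R versus Sham, the folate receptor gene Folr1 (4.51, SE 1.34, limma adjusted p = 0.0419). Folr1 was -5.92, -5.92, and -4.03 on the Sham arrays, -1.3, -0.76, and -0.27 on the I/R arrays, and 1.42, -4.61, and -1.01 on the DHI arrays. It was higher on all 3 I/R arrays than on any Sham array, as the members were.

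**Figure D5:**
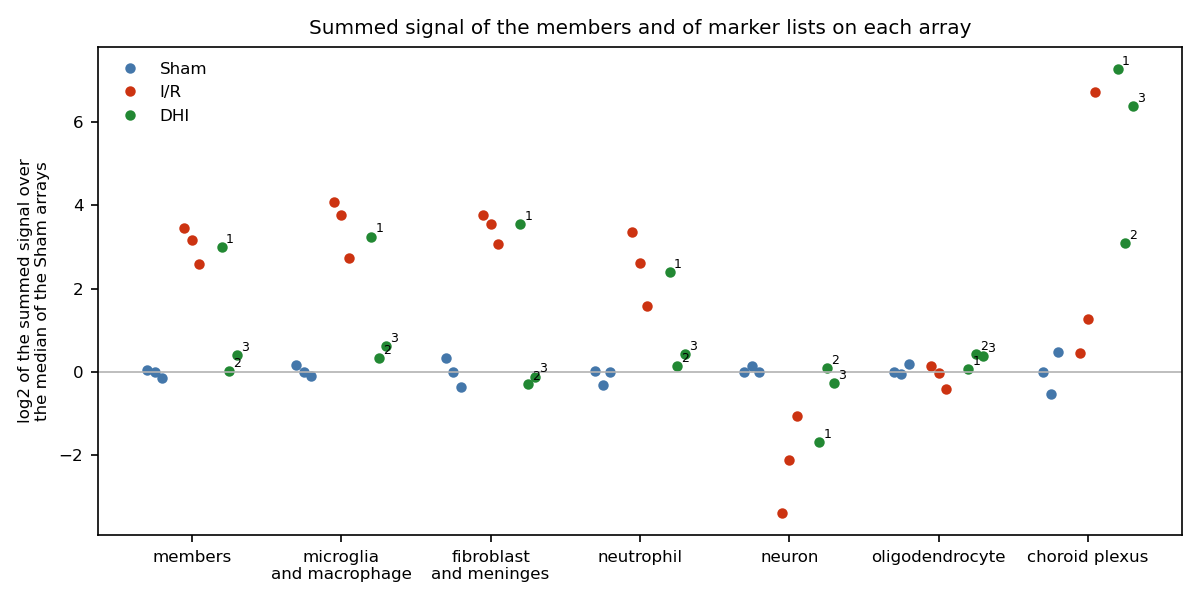
Log2 of the summed linear signal of the 10 members and of 6 marker lists on each array, relative to the median of the Sham arrays (vertical axis). Points are arrays, with the DHI arrays numbered by replicate. DHI 1 lies with the I/R arrays for the members, microglia, fibroblast, and neutrophil lists, and the choroid plexus list is high on I/R 3, DHI 1, and DHI 3.

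The promoters of S100a4, Anxa1, and Anxa2 are shown as examples. Each holds the letters TATAAA, and they differ in the other motifs matched. They are the 250 bases before the RefSeq start of the gene on the GRCr8 build, read 5′ to 3′ on the strand of the gene, and matched motifs are in capitals. RefSeq promoters were matched for 8 of the 10 genes, all but S100a8 and S100a10.
S100a4 promoter, GRCr8 chr2:178388279-178388528, + strand: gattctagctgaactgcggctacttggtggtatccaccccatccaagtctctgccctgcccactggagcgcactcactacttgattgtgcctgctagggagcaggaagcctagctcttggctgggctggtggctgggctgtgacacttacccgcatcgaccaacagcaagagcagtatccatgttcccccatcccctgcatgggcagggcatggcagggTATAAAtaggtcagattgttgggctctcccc
Anxa1 promoter, GRCr8 chr1:227303733-227303982, - strand: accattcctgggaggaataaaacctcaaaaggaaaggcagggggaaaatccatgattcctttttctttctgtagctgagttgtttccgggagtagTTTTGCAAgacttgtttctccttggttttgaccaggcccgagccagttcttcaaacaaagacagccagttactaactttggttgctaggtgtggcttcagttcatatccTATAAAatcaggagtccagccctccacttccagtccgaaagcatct
Anxa2 promoter, GRCr8 chr8:78986002-78986251, + strand: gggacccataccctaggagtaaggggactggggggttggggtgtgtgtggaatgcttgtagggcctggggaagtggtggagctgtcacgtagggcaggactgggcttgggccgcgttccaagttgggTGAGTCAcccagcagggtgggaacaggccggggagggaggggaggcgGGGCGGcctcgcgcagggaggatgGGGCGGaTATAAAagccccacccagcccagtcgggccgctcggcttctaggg
Motifs were searched on both strands. The letters TATAAA, the core of a promoter box near the start site, were found in 4 of 8 promoters, those of S100a4, S100a9, Anxa1, and Anxa2, and in 12.9% of 33469 rat promoters of the same length. The Sp1 letters GGGCGG were found in 5 of 8, those of S100a6, S100a11, Anxa2, Anxa3, and Anxa5, and in 30.5% of all. The AP-1 letters TGANTCA were found among the 8 only in Anxa2 (6.34% of all). The C/EBP letters TTGCNNAA were found among the 8 only in Anxa1 (9.22% of all). The STAT letters TTCNNNGAA were in 0 of 8 (7.67% of all). In Anxa2 the matches of the 3 motifs found there did not overlap. A match of letters is a description and does not show a bound site.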

How the data were processed

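The authors deposited the Feature Extraction (version 10.7.1.1) output of 9 arrays, with a linear intensity per spot after background correction and before any scaling between arrays. A table of log2 values that followed quantile-normalized intensities was deposited as well. Feature Extraction flags gave the probes well above background.

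Control and outlier spots were left out. The log2 signals of a probe's spots were averaged, and the 75th percentile of the array was subtracted. Tests covered the 23745 of 30367 probes that some group measured well above background on each of its 3 arrays. One model over the 9 arrays was fitted with limma 3.58.1 (lmFit, eBayes) in R 4.3.3 with data.table (version 1.17.8), and p-values were adjusted by Benjamini-Hochberg over all tested probes. The fit was tested on simulated data. Groups came from the sample labels. The labels number 3 replicates per group, which the study describes as biological replicates.

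The 10 genes and all gene lists were chosen with earlier results of these data known. The text names all 10 genes by the brightest probe, the 3 genes with the largest change among those called in each other list, genes of a list that moved against the rest, the 3 symbols nearest to each of 5 members, and Mpo, Elane, Snap25, Gfap, and Mbp. Other list genes were named after their values were seen. Symbols are those of the files.

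The alternatives were, for scaling, quantile normalization or none, for the values, normexp with an offset of 50 or the deposited log2 values, and for the filter, none or all 9 arrays well above background. Further ones were array weights, a model of 2 groups, the replicate block, the methods' t-test, the mean of a gene's probes, and leaving out each array in turn. Promoters come from RefSeq (GRCr8). The number of arrays limits the precision.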

Additional observations from a re-analysis of the deposited data

How the results depend on the processing

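The count of 10 genes called in I/R versus Sham stayed at 9 or 10 under every alternative, and over the 10 genes and 20 alternatives 196 of 200 values kept direction and call, the others being Anxa5 in 3 and S100a9 in 1. The 9 that passed the adjusted p were 0 with no scaling, where 1 of all 23745 probes passed, and 0 to 10 when 1 array was left out. The 7 called in DHI versus I/R were 10 with no scaling, 9 with array weights, 2 with only the 2 groups compared, 0 by the methods' t-test, and 0 to 9 when 1 array was left out. In the settings that kept every array of DHI and I/R, 29.8%, 22.5%, 4.65%, and 0.737% of all probes were called lower, in the same order. The 0 with an adjusted p under 0.05 in DHI versus I/R were 9 with array weights, where 12213 of all 23745 probes passed, and 0 to 8 when 1 array was left out, with 9527 of all probes passing without DHI 1. The 2 called in DHI versus Sham were 1 with quantile normalization, 1 with the series table, 0 with no scaling, 0 with only the 2 groups compared, 0 by the methods' t-test, 5 with array weights, and 0 to 5 when 1 array was left out. In the settings that kept every array of DHI and Sham, 1.24%, 1.22%, 0.371%, 2.47%, 1.12%, and 13.5% of all probes were called higher, in the same order. Where a count fell after leaving out an array, the model also had fewer samples, and the cause was not tested otherwise. No scaling moved the median of all probes to 0.10 in I/R versus Sham, -0.36 in DHI versus I/R, and -0.25 in DHI versus Sham. No called value changed sign. In DHI versus Sham 3 values that were not called did.

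The groups share replicate numbers, and the deviations of arrays with the same number correlated between -0.34 and 0.48. With 3 arrays per group these values cannot show whether the numbers pair the rats, and the labels state no pairing. With the replicate block, the counts called in the 3 comparisons were 10, 8, and 2, and 9 and 0 passed the adjusted p in I/R versus Sham and DHI versus I/R. Of all probes, 21% were called higher, 12.3% lower, and 3.75% higher in the same directions. The adjusted p was passed by 17.4% in the higher direction and 0.00421% in the lower.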
